A study of Homo sapiens with 19 samples.

Results

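A group of 10 heat shock chaperone genes was followed in A549 cells, a human lung adenocarcinoma line: HSPA1A, HSPA1B, HSPA8, HSP90AA1, HSP90AB1, HSPH1, DNAJB1, HSPB1, HSPD1 and HSPE1. They were taken as a named list of cytosolic and mitochondrial heat shock protein genes, matched by Ensembl identifier, and are 10 of the 62700 genes counted. The cells were grown flat as monolayers or as spheroids and were exposed to nanostraw electroporation (NEE), in which hollow straws and an electric pulse open living cells for a short time and RNA passes out through the straws. Lysates were made before NEE, directly afterwards, and 2 h and 24 h after the pulse, in 2 biological replicates of each culture, which gives 16 libraries in 8 groups. A separate arm sequenced RNA drawn out by NEE from A549 cells labelled as monolayer, in 3 technical replicates. All cells came from this 1 line, and the labels name no genetic change, heat or drug in any group. A kit for total RNA served for the lysates, and a clean-up kit for the NEE arm. All libraries were made by Smart-Seq2. Total counts were 16031034 to 24571083 in the lysate libraries and 13626934 to 18512985 in the NEE-sampled libraries. Levels are CPM, the counts of a gene scaled to the library total.

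Heat shock proteins bind unfolded stretches of other proteins, keep them from clumping and help them fold. HSP70 proteins work in cycles with J-domain partners such as DNAJB1 and with exchange factors such as HSPH1, and hand many clients, kinases and steroid receptors among them, to HSP90. When misfolded protein builds up, heat shock factor 1 (HSF1) is freed, forms trimers and binds promoters that carry inverted repeats of the short unit nGAAn, which raises HSPA1A, HSPA1B, DNAJB1 and other chaperone genes within minutes to hours. HSPA8 and HSP90AB1 are the forms made constantly, whereas HSPA1A, HSPA1B and HSP90AA1 answer more strongly to stress. HSPB1 is a small heat shock protein that holds unfolding proteins without using ATP. HSPD1 and HSPE1 form the folding chamber of mitochondria and its lid.

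The letters to which HSF1 binds stand in the promoters of most of these genes. They are shown as background to the comparisons below, in which each gene was tested on its own. The 250 bases before each RefSeq start (GRCh38.p14) were searched on both strands for 2 facing units, GAANNTTC or TTCNNGAA, and for 3 units in a row, in which NN and a further unit in the opposite orientation follow, so that the longer motif contains the shorter one. The shorter motif stood in 8 of the 16 promoter windows of these genes, in 8 of the 10 genes, and in 11.6% of 35116 windows of all genes. The longer motif stood in windows of 4 genes, HSP90AA1, HSP90AB1, HSPA8 and HSPD1, and in 0.441% of all windows. No match was found in the windows of HSPH1 and HSPE1, which says only that these letters are not in those 250 bases. The stretches below run 5′ to 3′ on the strand of the gene, with the motif in capitals, and stop at the first annotated exon.
HSPA1A: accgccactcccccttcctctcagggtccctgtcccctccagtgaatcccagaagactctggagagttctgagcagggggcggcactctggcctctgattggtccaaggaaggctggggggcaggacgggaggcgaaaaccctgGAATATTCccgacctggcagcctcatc
DNAJB1: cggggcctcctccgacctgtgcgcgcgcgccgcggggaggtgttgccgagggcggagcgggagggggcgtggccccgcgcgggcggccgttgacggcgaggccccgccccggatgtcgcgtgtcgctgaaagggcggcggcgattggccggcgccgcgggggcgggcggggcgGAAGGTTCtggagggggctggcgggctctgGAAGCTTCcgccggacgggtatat
HSP90AB1: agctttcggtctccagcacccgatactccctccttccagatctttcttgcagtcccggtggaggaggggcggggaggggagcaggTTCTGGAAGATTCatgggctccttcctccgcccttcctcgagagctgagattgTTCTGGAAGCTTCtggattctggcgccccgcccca
HSPB1: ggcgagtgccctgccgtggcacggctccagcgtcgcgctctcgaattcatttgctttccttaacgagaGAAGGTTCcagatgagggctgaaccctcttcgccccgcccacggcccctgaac
The HSPA1A stretch lies at chr6:31815293-31815463 on the plus strand and that of DNAJB1 at chr19:14518421-14518647 on the minus strand. The HSP90AB1 stretch lies at chr6:44247693-44247865 and that of HSPB1 at chr7:76302423-76302543, both on the plus strand. In HSPA1A and HSPB1 the motif holds 2 units, in DNAJB1 it occurs at 2 places, and in HSP90AB1 each of 2 places holds 3 units. In 3 other genes the window lies wholly or mostly in annotated exons, so only 30 bases around the longer motif are given.
HSP90AA1: gggagggttcTTCCGGAAGGTTCgggaggc
HSPA8: ggcgggccccTTCTGGAAGGTTCtaagata
HSPD1: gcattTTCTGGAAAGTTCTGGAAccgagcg
These lie on the minus strand at chr14:102087113-102087142, chr11:123062172-123062201 and chr2:197500061-197500090. The match is a description of letters, and binding was not measured.

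Epithelial markers were present in all libraries, and markers of other cell types set 1 library apart. Of 5 epithelial markers (KRT8, KRT18, KRT19, EPCAM and CDH1) the summed level was 11505 to 24643 CPM in the other lysates and 15563 to 18699 CPM in NEE-sampled RNA, but 5117 CPM in replicate 1 of the monolayers before NEE. In that library 12 natural killer and T cell markers summed to 578 CPM, against 14.8 to 52.2 CPM in the other lysates and 0.216 to 2.31 CPM in NEE-sampled RNA. Its fibroblast markers (33.5 CPM) and endothelial markers (17.2 CPM) were also the highest, against at most 10.7 and 4.28 CPM in the other lysates. It is called the leukocyte-bearing library here. Counts of calls that use it are also given without it, as are named values whose direction turns. In bulk RNA, fewer cells of a type and less RNA per cell cannot be told apart.

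Across the monolayers the constitutive HSP70 and HSP90 genes stood far above the inducible ones. Scaled to the length of the principal transcript, HSPA8 had the highest level, with a median of 1793 CPM per kilobase (range 1487 to 2190.5 over 8 libraries), and HSP90AB1 followed at 1206 (1085 to 1289). These ranges did not overlap. The mitochondrial chaperonin HSPD1 (median 356, 305 to 404) and the inducible HSP90AA1 (276, 209 to 413) overlapped with each other, and HSP90AA1 overlapped with DNAJB1 (181, 149.7 to 219.7), the J-domain partner of HSP70. HSPB1 came next (72.8, 51.9 to 108), below DNAJB1 in all 8 libraries. The low group was HSPA1A (35.2), HSPH1 (15.8), HSPE1 (11.8) and HSPA1B (5.90), in which HSPA1A overlapped with HSPH1 and HSPH1 with HSPE1. HSPA1A and HSPA1B share much of their sequence, as described below, so their levels may be counted too low. In the spheroids the same 2 genes led, HSPA8 at a median of 1044 and HSP90AB1 at 756 CPM per kilobase, but HSP90AA1 (99.5, 90.6 to 153) lay below HSPD1 (218, 188 to 241) in all libraries and overlapped with DNAJB1 (157) and HSPB1 (73.0). The 10 genes together took 0.916% to 1.16% of all counts in monolayers, 0.590% to 0.736% in spheroids and 0.472% to 0.493% in NEE-sampled RNA.

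**Figure D1:**
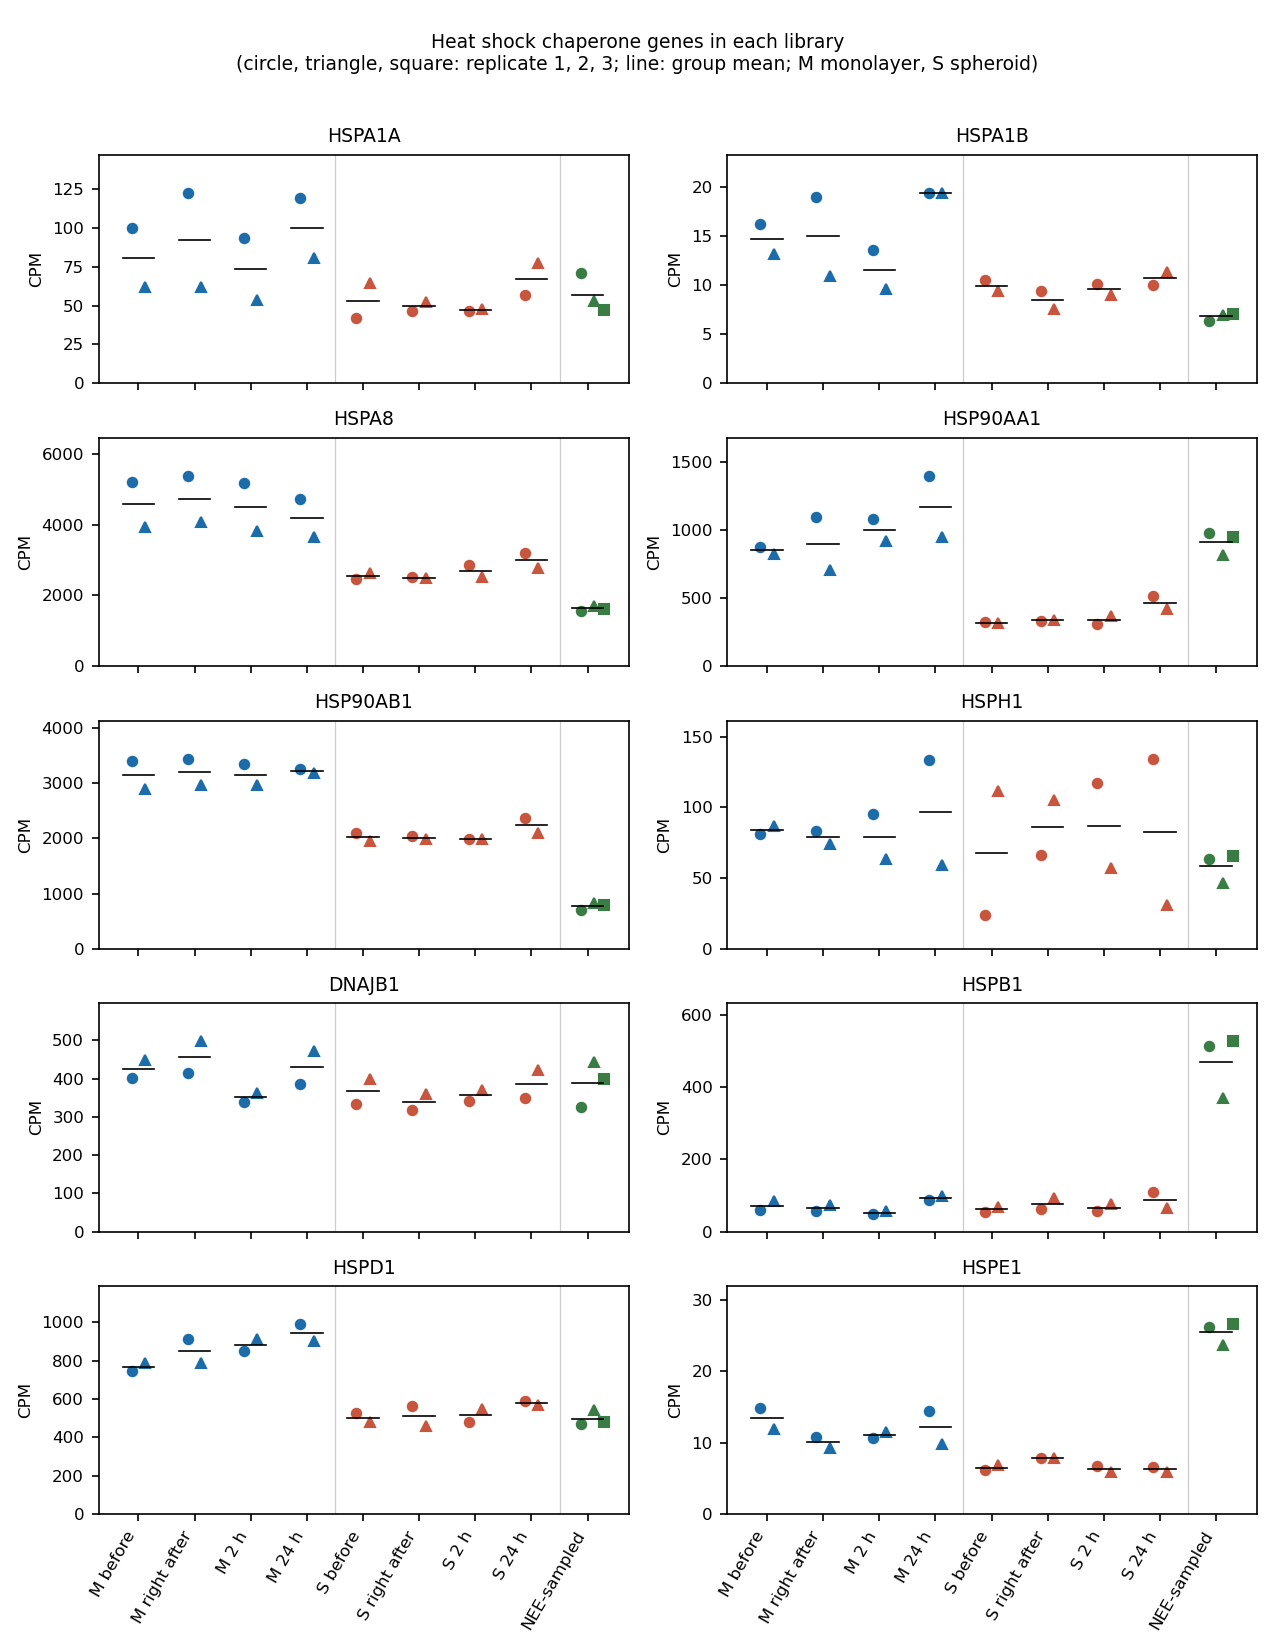
Level of each gene in CPM (vertical axis, from 0) in each of the 19 libraries, by group (horizontal axis). Points are libraries, shaped by replicate number, and the line is the group mean. HSP90AA1, HSP90AB1, HSPA8, HSPD1 and HSPE1 are lower in all 8 spheroid libraries than in all 8 monolayer libraries, and HSPB1 and HSPE1 are highest in the 3 NEE-sampled libraries.

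HSPA1A and HSPA1B need care. They are neighbours on chromosome 6 of GRCh38 (HSPA1A at 31815464 to 31817946, HSPA1B at 31827735 to 31830255, both on the plus strand, GENCODE 29) and encode nearly the same mRNA. Of the 100-base windows of their exons, 67.3% of those in HSPA1A and 72.7% of those in HSPA1B occur in another gene, mainly in each other. How the authors counted reads that fit both is not given in the sources used here, so the split between them is uncertain and their sum is given too. If such reads were left out, the sum and the levels per kilobase of both genes are too low as well. HSPE1 shares 12.9% of its windows with other genes, above all with the read-through gene HSPE1-MOB4 (8.36%), which is listed at 0 in all 19 libraries. HSPD1 and HSPE1 overlap on opposite strands of chromosome 2, as do HSP90AA1 with WDR20 and DNAJB1 with TECR on chromosomes 14 and 19. Whether strand was used in counting is not given. For the other genes at most 4.27% of windows were shared. Of 76 pseudogenes of these genes 44 had a count, and together they reached at most 0.459% of the level of the 10 genes.

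The first question is whether electroporation itself set off a heat shock response. None of the 10 genes passed the test at any time after NEE in either culture. HSPA1A, the classical HSF1 target, stood in the monolayers at 99.8 and 62.1 CPM before NEE, 123 and 62.0 right after, 93.8 and 53.6 at 2 h, and 119.8 and 81.1 at 24 h. In the spheroids HSPA1A stood at 42.0 and 64.4 CPM before, 46.7 and 52.7 right after, 46.6 and 47.8 at 2 h, and 57.0 and 77.8 at 24 h. The values before NEE overlap with those at each later time in both cultures, and in the monolayers replicate 1 was above replicate 2 at each time.

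DNAJB1, the HSP40 that rises with HSPA1A on heat shock, was at 402 and 449.7 CPM in the monolayers before NEE and at 339 and 362 CPM at 2 h. In the spheroids it was at 333 and 399.6 CPM before and at 342 and 369.8 CPM at 2 h. Thus at 2 h it lay below the earlier values in the monolayers and among them in the spheroids. Its replicate 2 was above replicate 1 at each time in both cultures. HSPA1B stayed between 9.60 and 19.4 CPM in the monolayers and between 7.60 and 11.4 CPM in the spheroids. Averaged over both cultures, the log2 change at 2 h was −0.14 ± 0.26 (SE) for HSPA1A, −0.19 ± 0.26 for HSPA1B, −0.15 ± 0.14 for DNAJB1 and 0.16 ± 0.50 for HSPH1. The 95% interval reached from −0.71 to 0.43 for HSPA1A and from −0.46 to 0.16 for DNAJB1, so small rises lie inside both. Without the leukocyte-bearing library the estimate for HSPA1A turned to 0.04 (−0.55 to 0.64), and that for DNAJB1 was −0.19 (−0.52 to 0.13). The summed counts of HSPA1A and HSPA1B gave −0.14 ± 0.25 (−0.67 to 0.39).

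By edgeR's quasi-likelihood test with Benjamini-Hochberg adjustment over 17822 genes, 0 of 10 genes passed an adjusted p of 0.05 in any of the 6 contrasts between a later time and the start, in the 3 means of both cultures and in the 3 interactions of culture and time. The lowest adjusted p rounds to 1. Few genes of any kind passed: 0.0% right after NEE and at 24 h in both cultures and in their mean, 0.00561% at 2 h in the monolayers, 0.0112% at 2 h in the spheroids and 0.0337% at 2 h in the mean. At an unadjusted p under 0.05 the count was 0 of 10 in each comparison but 1, the mean of both cultures at 24 h, where HSP90AA1 passed. DESeq2 also called 0 of the 10 in all of these, as did each other setting tried. The comparisons with a later time share the libraries before NEE, so they are not independent. The counts were again 0 without the leukocyte-bearing library.

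HSP90AA1 came closest at 24 h. In the monolayers it was at 876 and 825 CPM before NEE and at 1397 and 945 CPM at 24 h, and in the spheroids at 324 and 314 CPM before and at 516 and 417 CPM at 24 h. Both libraries at 24 h were above both before NEE in each culture. The log2 change was 0.48 ± 0.23 in the monolayers, 0.48 ± 0.23 in the spheroids and 0.48 ± 0.16 in their mean (95% interval 0.13 to 0.83, unadjusted p = 0.0113, edgeR adjusted p = 1). Within replicate 1 the mean difference on the log2(CPM + 1) scale was 0.67 and within replicate 2 it was 0.30. HSPD1 showed the same order of libraries in both cultures, from 748 and 787 to 991 and 901 CPM in the monolayers and from 526 and 479 to 592 and 571 CPM in the spheroids, with a mean log2 change of 0.23 ± 0.13. Such an order in both cultures was seen for 2 of the 10 genes and for 2.5% of all genes tested, and the difference did not pass the test for either. Without replicate 1 of the monolayers at 24 h, the mean log2 change of HSP90AA1 was 0.34, the lowest of 8 such values that reached up to 0.61. It was 0.51 without the leukocyte-bearing library.

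The remaining genes had small estimates with the widest intervals at HSPH1. This gene, an HSP110 exchange factor for HSP70, was at 23.6 and 111 CPM in the 2 spheroid libraries before NEE and at 134 and 31.2 CPM at 24 h, so replicates of 1 group differed more than groups did. Right after NEE the smallest p values belonged in the monolayers to HSPE1, with a log2 change of −0.37 ± 0.35, and HSPD1, with 0.18 ± 0.18. In the spheroids they belonged to HSPB1 (0.28 ± 0.31) and DNAJB1 (−0.15 ± 0.20), and in the mean of both cultures to HSPD1 (0.09 ± 0.13) and HSP90AA1 (0.08 ± 0.16). At 2 h they belonged to HSPD1 (0.26 ± 0.18) and HSPB1 (−0.40 ± 0.31) in the monolayers, and to HSPA1A (−0.20 ± 0.38) and HSPH1 (0.36 ± 0.70) in the spheroids. In the mean at 2 h they were DNAJB1 and HSP90AA1 (0.17 ± 0.16). At 24 h the next after HSP90AA1 were HSPD1 in the monolayers (0.32 ± 0.18) and HSPB1 in the spheroids (0.41 ± 0.31) and in the mean (0.40 ± 0.22). None of these passed (edgeR adjusted p = 1 after rounding).

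Whether the cultures responded differently was tested by the interaction. Right after NEE the smallest p belonged to HSPE1, whose change was higher in the spheroids by 0.62 ± 0.50 on the log2 scale, and the next was DNAJB1 (−0.29 ± 0.29). At 2 h these were HSPB1 (0.46 ± 0.43) and HSPD1 (−0.25 ± 0.26), and at 24 h HSPA8 (0.27 ± 0.31) and HSPA1B (−0.37 ± 0.51). None passed the test (edgeR adjusted p = 1 after rounding), and each 95% interval spanned 0.

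**Figure D2:**
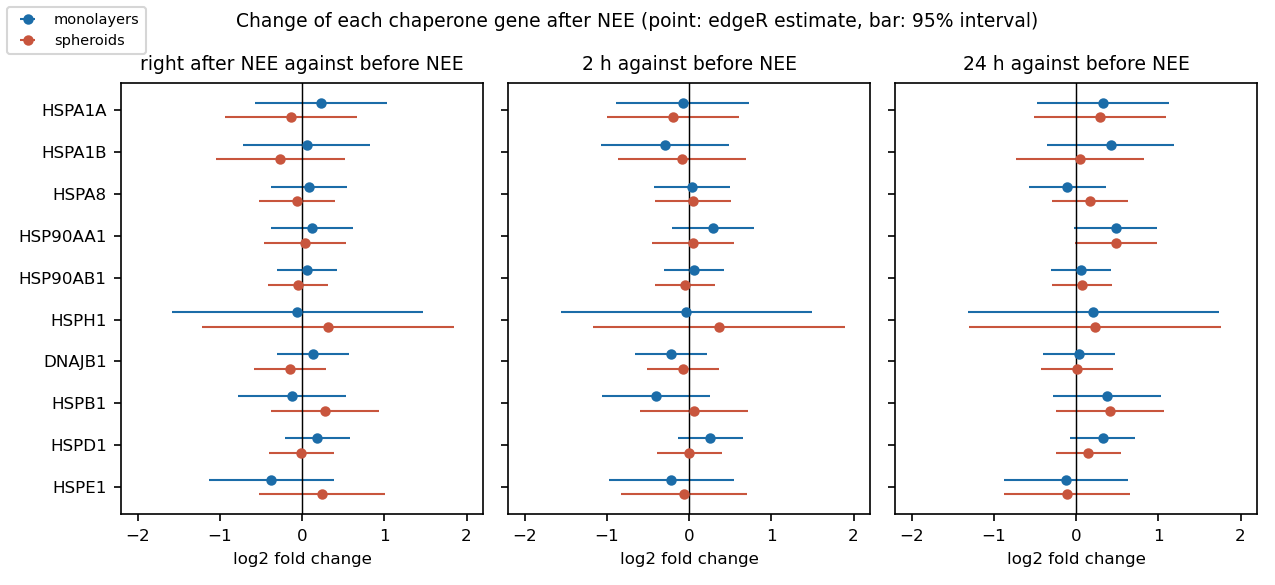
Log2 fold change (horizontal axis) of each gene (vertical axis) right after NEE, 2 h and 24 h after it, against before NEE, in monolayers and spheroids. Points are edgeR estimates and bars 95% intervals: all bars cross 0, and those of HSPH1 are the widest.

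The wider chaperone network gave no called gene either. Lists of 25 other genes of the cytosolic HSP70, HSP40 and HSP110 system, 13 HSP90 co-chaperones, 12 heat shock factors and other HSF1 targets, 14 mitochondrial chaperones and proteases, 8 subunits of the CCT/TRiC chaperonin and 12 endoplasmic reticulum (ER) chaperones were tested whole, and of 9 small heat shock proteins 4 passed the filter on low counts. In the mean of both cultures 0 members of these 7 lists passed at any time (edgeR). At 2 h the list medians lay between −0.05 for ER chaperones and 0.16 for small heat shock proteins, beside −0.01 for all genes. Among heat shock factors and other HSF1 targets, SERPINH1, PLIN2 and the factor HSF4 had the smallest p values at 2 h. SERPINH1, a collagen chaperone, had −0.19 ± 0.16, PLIN2, a lipid droplet coat protein, −0.49 ± 0.42, and HSF4 0.55 ± 0.50. HSPA6, an HSP70 gene that is nearly silent without stress, was named after its values were seen. It stayed at 0 to 6.55 CPM in the monolayers and 0 to 2.08 CPM in the spheroids and was listed at 0 in all 3 NEE-sampled libraries.

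Growth as spheroids was accompanied by lower levels of 6 of the 10 genes. Taken over the 4 times, HSP90AA1, HSP90AB1, HSPA8, HSPD1, HSPE1 and HSPA1A were lower in the spheroids, and none was higher. The fall was largest in HSP90AA1, which was 2.54-fold lower, and between 1.45-fold and 1.62-fold in the others. The cofactors HSPH1 and DNAJB1 and the small heat shock protein HSPB1 did not pass the test. This test treats all libraries of a culture as independent, and how separate the cultures were is not given. By edgeR 3542 of 17822 genes passed, 19.9% in either direction and 9.84% as lower. The median log2 difference of the 10 genes was −0.56, beside −0.02 for all genes.

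The HSP90 pair differed in size. HSP90AA1, the stress-inducible cytosolic HSP90, ranged from 707 to 1397 CPM in the monolayers (median 932) and from 306 to 516 CPM in the spheroids (median 336). The highest spheroid library lay below the lowest monolayer library. Its log2 difference was −1.34 ± 0.12 (95% interval −1.60 to −1.09, edgeR adjusted p = 1.15e-05). HSP90AB1, the constitutive form, ranged from 2901 to 3448 CPM (median 3226) in the monolayers and from 1958 to 2373 CPM (median 2023) in the spheroids, again with no overlap, and its log2 difference was −0.54 ± 0.08 (−0.72 to −0.35, edgeR adjusted p = 0.00073). The 2 intervals do not overlap, and the ratio of HSP90AA1 to HSP90AB1 per transcript length was 0.188 to 0.339 in the monolayers and 0.121 to 0.172 in the spheroids. This ratio was chosen after the values were seen and carries no test.

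In the HSP70 family the constitutive HSPA8 went from 3661 to 5395 CPM (median 4417) in the monolayers to 2477 to 3215 CPM (median 2572) in the spheroids. The libraries did not overlap, and the log2 difference was −0.66 ± 0.11 (edgeR adjusted p = 0.000908). Inducible HSPA1A ranged from 53.6 to 123 CPM (median 87.4) in the monolayers and from 42.0 to 77.8 CPM (median 50.3) in the spheroids, and these ranges overlap. Its log2 difference was −0.59 ± 0.19 (edgeR adjusted p = 0.0406). HSPA1B, at 9.60 to 19.4 CPM against 7.60 to 11.4 CPM, had nearly the same difference, −0.54 ± 0.18, and did not pass (edgeR adjusted p = 0.052), but passed with the replicate number as a block (adjusted p = 0.0393). The sum of both passed, at −0.58 ± 0.17 (edgeR adjusted p = 0.032). The call on HSPA1A is fragile: leaving out each of the 16 libraries in turn ended it in 10 cases, with an adjusted p up to 0.132, and without the leukocyte-bearing library it was 0.0891. Within replicate 1 its difference was −1.16 on the log2(CPM + 1) scale, with no overlap of 4 against 4 libraries, and within replicate 2 it was −0.10. For HSP90AA1 these values were −1.60 and −1.24, and for HSPA8 −0.90 and −0.58.

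The mitochondrial pair was lower as well. HSPD1 ranged from 748 to 991 CPM (median 875) in the monolayers and from 461 to 592 CPM (median 536) in the spheroids, and HSPE1 from 9.27 to 14.9 CPM (median 11.2) and from 5.86 to 7.93 CPM (median 6.73). Neither gene overlapped between the cultures. The log2 difference was −0.62 ± 0.09 for HSPD1 (edgeR adjusted p = 0.000489) and −0.69 ± 0.18 for HSPE1 (edgeR adjusted p = 0.0148). HSPE1 lost its call without a filter on low counts (adjusted p = 0.109), without replicate 1 of the monolayers right after NEE (0.0509) and without replicate 1 of the monolayers at 24 h (0.0549). In all, 5 of the 10 genes were lower in every spheroid library than in every monolayer library, which held for 4.51% of all genes tested, and 0 were higher in every one, beside 2.49%.

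The genes that did not pass had intervals of unequal width. DNAJB1, at 339 to 497 CPM in the monolayers and 317 to 422 CPM in the spheroids, had a log2 difference of −0.11 ± 0.10 (95% interval −0.33 to 0.11). HSPB1, at 47.2 to 98.4 CPM against 55.1 to 109 CPM, had 0.15 ± 0.15 (−0.18 to 0.48). HSPH1 had 0.01 ± 0.35 (−0.75 to 0.78), so a change of 1.5-fold either way lies inside its interval. Its estimate turned to −0.0025 without the leukocyte-bearing library. Without the leukocyte-bearing library 5 of the 10 genes passed, HSPA1A being the one lost.

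Scaling bears on how the calls split. With library totals in place of TMM factors, 1472 genes were higher and 2264 lower, against 1788 and 1754, the median of all genes moved to −0.11, and 7 of the 10 genes were lower. Before NEE alone, with 2 libraries against 2, only HSP90AA1 passed, with a log2 difference of −1.27 ± 0.24 (edgeR adjusted p = 0.0236), beside 1.3% of all genes in either direction and 0.595% as lower. With the replicate number as a block 2 genes passed. The other 9 genes had differences from −0.89 to −0.07. That call was lost without the leukocyte-bearing library (adjusted p = 0.0894), without either spheroid library (0.118 and 0.151) and when the fit held only the 4 libraries compared (0.408).

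The other chaperones are given by list, where 1754 of all 17822 genes tested (9.84%) were lower and 1788 higher. All 8 CCT/TRiC subunits, which fold actin and tubulin, were lower (median −0.72), among them TCP1 (−0.88 ± 0.09), CCT4 (−0.89 ± 0.10) and CCT6A (−0.83 ± 0.09). Of 13 HSP90 co-chaperones 7 were lower and 0 higher (median −0.59). These included STIP1, which links HSP70 to HSP90 (−0.81 ± 0.10), CHORDC1 (−1.33 ± 0.20) and CACYBP (−0.90 ± 0.16). Of 25 other genes of the cytosolic HSP70 system 6 were lower and 1 higher (median −0.19), with HSPA4L (−1.07 ± 0.16), HSPA4 (−0.85 ± 0.14) and the J-domain gene DNAJA1 (−0.56 ± 0.10) at the smallest p. Its 6 include HSPA6, which is at or near 0 in most libraries. Of 14 mitochondrial chaperones and proteases 5 were lower and 0 higher (median −0.12), including the HSP70 exchange factor GRPEL2 (−0.92 ± 0.19), mitochondrial HSPA9 (−0.46 ± 0.12) and DNAJA3 (−0.39 ± 0.11).

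The ER chaperones, most of which answer to the unfolded protein response and not to HSF1, went the other way: 9 of 12 were higher and 0 lower (median 0.63). PDIA6 (0.72 ± 0.09), PDIA3 (0.82 ± 0.11) and PDIA4 (0.71 ± 0.10), which form and reshuffle disulphide bonds, had the smallest p. Of 12 heat shock factors and other HSF1 targets 2 were higher and 0 lower, HSF4 (1.48 ± 0.36) and PLIN2 (1.19 ± 0.30), with a median of −0.01. Of the 4 small heat shock proteins tested 1 was lower, HSPB11 (−0.57 ± 0.19), which is now named IFT25 and serves in ciliary transport. That call was lost under RLE scaling, without a filter on low counts and without the leukocyte-bearing library. Medians of the CCT/TRiC subunits, co-chaperones and ER chaperones kept their sign under RLE scaling, library totals, the replicate block and DESeq2. Without the leukocyte-bearing library 8 of 8 CCT/TRiC subunits and 9 of 13 co-chaperones were lower and 8 of 12 ER chaperones higher. Counts of the cytosolic HSP70, mitochondrial and HSF1-target lists are not given without that library. The lists were drawn up with earlier results of these data known, so their directions are a description.

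**Figure D3:**
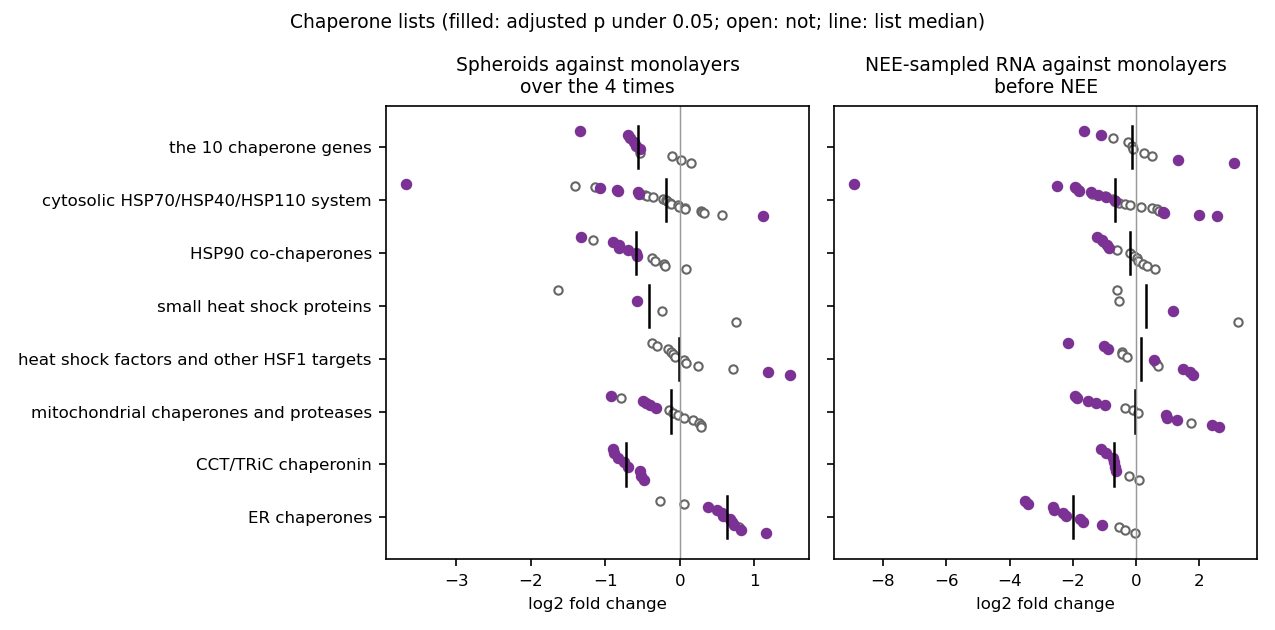
Log2 fold change (horizontal axis) of the 10 genes and of 7 lists of other chaperone genes, for spheroids against monolayers over the 4 times (left) and NEE-sampled RNA against monolayers before NEE (right). Points are genes, filled where the edgeR adjusted p is under 0.05, and the line is the list median. On the left all 8 CCT/TRiC subunits lie below 0 and 9 of 12 ER chaperones are filled above it, whereas on the right 9 of 12 are filled below it. The lowest point of either panel is HSPA6, at or near 0 in most libraries, whose position is no measure of size.

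Markers of other cell types are given beside this comparison. The natural killer and T cell list summed to 14.8 to 578 CPM in the monolayers and 15.3 to 52.2 CPM in the spheroids, and 0 of its 11 tested genes passed. The highest value of the monolayers is that of the leukocyte-bearing library, and all other lysates were at most 52.2 CPM. Fibroblast and endothelial markers were highest in that library too, with 3 of 6 fibroblast genes under 1 CPM in all lysates. Of the 5 epithelial markers CDH1 (1.38 ± 0.30) and KRT19 (1.07 ± 0.33) were higher in the spheroids. The summed level of all 5 was 5117 to 24643 CPM in the monolayers and 12151 to 17744 CPM in the spheroids, and these ranges overlap. The part of cell makeup in the chaperone differences was not tested.

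RNA drawn out by NEE held the 10 genes in proportions unlike those of lysates. HSPB1 and HSPE1 were higher and HSP90AB1 and HSPA8 lower than in monolayers before NEE, and the other 6 did not pass the test. That is 4 of 10 genes, where 38.0% of 17067 genes passed by edgeR (15.6% as higher and 22.5% as lower), so the share is near the background. The 3 NEE-sampled libraries are technical replicates, so the test measures only technical spread on that side.

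HSPB1 made up the largest difference. It was at 514, 370.2 and 527 CPM in the NEE-sampled libraries, against 59.7 and 84.1 CPM in the monolayers before NEE and at most 109 CPM in any lysate. No lysate reached the lowest NEE-sampled value. The log2 difference was 3.09 ± 0.30, an 8.51-fold rise (edgeR adjusted p = 4.46e-05). HSPE1 was at 26.1, 23.6 and 26.6 CPM against 14.9 and 11.9 CPM, and its log2 difference was 1.31 ± 0.34 (edgeR adjusted p = 0.0089). It was above all 8 monolayer libraries in all 3. Without replicate 2 of the monolayers before NEE its call was lost (adjusted p = 0.0592).

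The constitutive pair went down. HSP90AB1 was at 706, 832 and 798 CPM against 3407 and 2901 CPM, 3.11-fold lower (−1.64 ± 0.17, edgeR adjusted p = 5.76e-05). HSPA8 was at 1564, 1706 and 1626 CPM against 5226 and 3939 CPM, 2.15-fold lower (−1.10 ± 0.21, edgeR adjusted p = 0.00156). Neither gene overlapped with any of the 8 monolayer libraries. With the 3 NEE-sampled libraries summed into 1, HSPA8 had −0.98 and did not pass (adjusted p = 0.0595). HSPA8 and HSP90AB1 together held 71.8% to 79.0% of the counts of the 10 genes in lysates and 48.1% to 52.4% in NEE-sampled RNA.

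HSP90AA1 did not follow HSP90AB1. It was at 978, 817 and 947 CPM, against 876 and 825 CPM in the monolayers before NEE, and these values overlap; the log2 difference was 0.49 ± 0.24 (95% interval −0.03 to 1.01, edgeR adjusted p = 0.126). The ratio of HSP90AA1 to HSP90AB1 per transcript length was 0.777 to 1.10 in NEE-sampled RNA and at most 0.339 in any lysate, again a description chosen after the values were seen. HSPD1 had −0.25 ± 0.18, HSPA1B −0.72 ± 0.36, DNAJB1 0.25 ± 0.21, HSPH1 −0.14 ± 0.33 and HSPA1A −0.11 ± 0.36, none of which passed. These estimates depend on the TMM factors, 0.822 to 0.877 in NEE-sampled libraries and 1.07 to 1.13 in the monolayers before NEE. By mean CPM, DNAJB1 was lower in NEE-sampled RNA (390 against 426). HSP90AA1 was at 914 against 850 CPM and HSPA1A at 57.1 against 81.0 CPM. Of the 10 genes 2 were above and 4 below all 8 monolayer libraries, beside 15.9% and 29.5% of all genes. These counts compare CPM without TMM factors.

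Monolayers lysed right after NEE, from the other arm, gave calls on HSPB1, HSPE1, HSP90AB1 and HSPA8 too. Against them the log2 difference was 3.19 ± 0.30 for HSPB1, 1.66 ± 0.34 for HSPE1, −1.72 ± 0.17 for HSP90AB1 and −1.22 ± 0.21 for HSPA8, beside 34.8% of all genes (14.2% higher, 20.6% lower). Both comparisons share the NEE-sampled libraries. With library totals in place of TMM factors the median of all genes against monolayers before NEE moved from −0.21 to −0.59 and the split of calls from 2660 higher and 3833 lower to 1901 and 4916. Under that scaling 2 of the 10 genes were higher and 4 lower. Without the leukocyte-bearing library 4 of 10 passed again, with HSPB1 at 2.82, HSPE1 at 1.43, HSP90AB1 at −1.57 and HSPA8 at −0.94, and HSPA1A, not called, turned to 0.21.

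Transcript length moved with the change in NEE-sampled RNA. Over 13447 protein-coding genes the median log2 difference was 1.81 for principal transcripts under 1000 bases, 0.91 for 1000 to 2000, −0.24 for 2000 to 4000 and −0.92 for 4000 bases or more, with a Spearman rho of −0.40 across genes, which are not independent. The 2 genes that were higher are the 2 shortest, HSPB1 at 909 and HSPE1 at 950 bases. The 2 that were lower, HSPA8 at 2463 and HSP90AB1 at 2674 bases, are close in length to HSPD1 (2455), HSPA1A (2483) and HSPA1B (2521), which did not pass. HSP90AA1 (3379) and HSPH1 (5191) are the longest and did not pass either. The lysates and NEE-sampled RNA were purified with different kits and come from separate arms, so the sampling, the kit and the arm cannot be told apart, and the part of length was not tested.

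**Figure D4:**
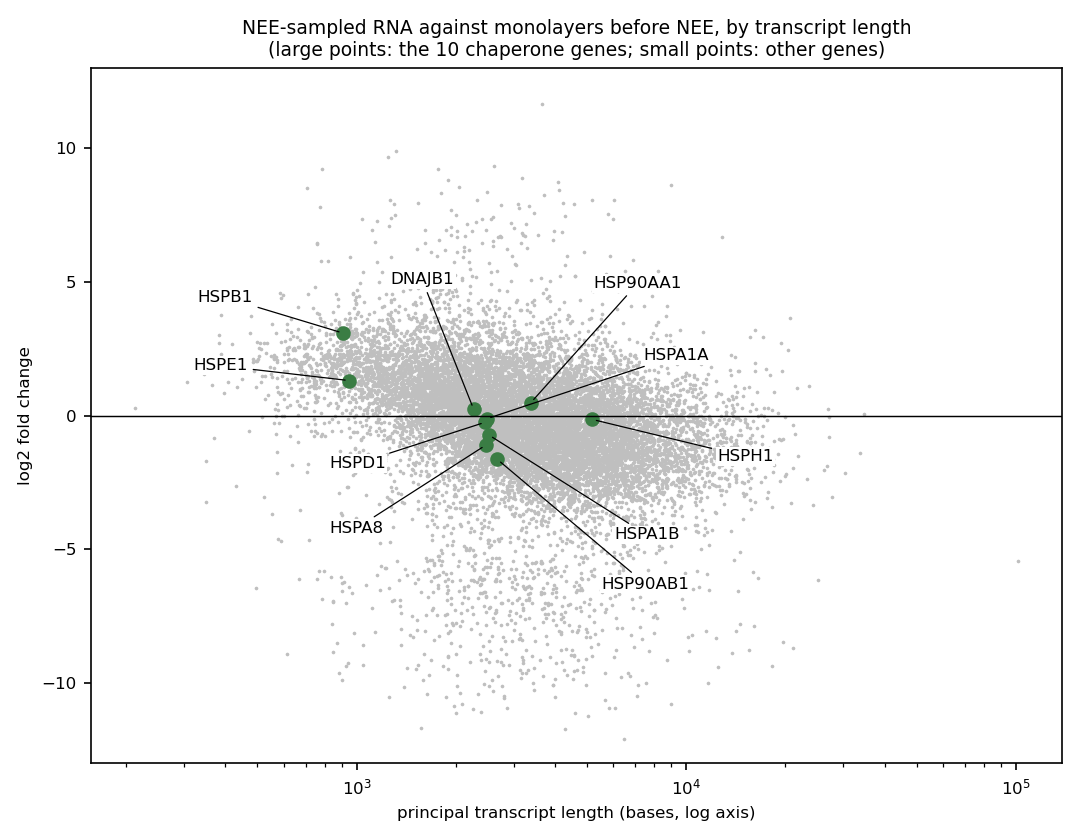
Log2 fold change of NEE-sampled RNA against monolayers before NEE (vertical axis) by principal transcript length in bases (horizontal log axis). Small points are protein-coding genes and large points the 10 chaperone genes. The 2 shortest, HSPB1 and HSPE1, lie above 0 at 3.09 and 1.31, and HSP90AB1 lies lowest of the 10 at −1.64.

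Other chaperones in NEE-sampled RNA are given by compartment, where 15.6% of all genes tested were higher and 22.5% lower. Of 12 ER chaperones 9 were lower and 0 higher (median −2.01), led in p by HSPA5, the ER member of the HSP70 family (−3.50 ± 0.29, from 1438 to 2495 CPM in monolayers to 90.6 to 170.3 CPM), with CANX (−2.23 ± 0.22) and PDIA4 (−2.30 ± 0.23). Of 8 CCT/TRiC subunits 6 were lower (median −0.70), and of 13 HSP90 co-chaperones 4 (median −0.20). The cytosolic HSP70 system had 4 higher and 9 lower of 25 (median −0.68), with HSPA2 (−1.89 ± 0.27), HSPA4L (−1.80 ± 0.26) and HSPA4 (−1.93 ± 0.28) at the smallest p. Mitochondrial chaperones and proteases split into 5 higher, such as HSCB (2.62 ± 0.47), and 5 lower, such as HSPA9 (−1.92 ± 0.24) and CLPX (−1.88 ± 0.27). Heat shock factors and other HSF1 targets split into 4 higher, such as ZFAND2A (1.49 ± 0.30) and UBB (1.71 ± 0.37), and 3 lower, such as HSF2 (−2.15 ± 0.35). HSPB11 was the 1 small heat shock protein called (1.17 ± 0.38). Without the leukocyte-bearing library 2 of 8 CCT/TRiC subunits and 9 of 12 ER chaperones were lower. Counts of the other lists are not given without that library. With library totals the median of the small heat shock proteins was −0.07, where TMM gave 0.31. That of the heat shock factors and other HSF1 targets was −0.23, where TMM gave 0.15.

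Across the 16 lysates, the genes whose level most resembled the mean of the 10 genes were DBF4B, LMNB2, SUV39H1, FBXO22 and CDC20. They were the 5 with the highest Pearson correlation of log2(CPM + 1) among 9602 protein-coding genes outside the lists, at 0.947, 0.945, 0.937, 0.926 and 0.926, with Spearman rho of 0.891 to 0.938. DBF4B ranged from 18.5 to 47.7 CPM in the monolayers and from 6.99 to 18.6 CPM in the spheroids, so these ranges touch, whereas the other 4 were lower in every spheroid library than in every monolayer library. FBXO22 ranked 8 in this order without the leukocyte-bearing library. Within the 8 monolayer libraries the correlations were 0.844, 0.927, 0.706, 0.693 and 0.582, and within the 8 spheroid libraries 0.690, 0.429, 0.623, 0.561 and 0.616. The points share the split into cultures and the library totals, so these values are a description.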

How the data were processed

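Raw read counts per gene were deposited. The submitters' processing notes name FastQC, Trimmomatic, HISAT2, featureCounts and the build GRCh38. Versions, annotation, strand setting and the treatment of reads that fit several genes: not given in the sources used here. Counts were used as deposited. Symbols and coordinates came from GENCODE 29, which placed 58207 of 62700 genes, and promoters from RefSeq, in which all 10 genes were found.

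Differences were tested with edgeR 4.0.16 (R 4.3.3): TMM scaling, its default filter on low counts, robust quasi-likelihood tests, and p-values adjusted by Benjamini-Hochberg over the whole table with 0.05 as the threshold. The lysate fit held 16 libraries, 8 groups and 17822 genes with 8 residual degrees of freedom. The fit with NEE-sampled RNA held these 3 and the 8 monolayer libraries, 17067 genes and 6 degrees of freedom. All 10 genes passed the filter in both. CPM uses library totals. Errors are SE unless named otherwise. Calling was also run on simulated counts, whose outcome is not given here. Biological replicates are separate samples per the labels, and how separate the cultures were is not given.

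The 10 genes, the lists and the naming rule were chosen with earlier results of these data known. By that rule a called gene gets its fold change, SE and adjusted p, where none is called the 2 genes with the smallest p get them, and each other list gives up to 3 genes with the smallest p. The most similar genes are 5 with a mean of at least 5 CPM.

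The labels' batch tag carries the replicate number, which was taken to pair the lysates. The check took, for libraries of 1 number, how far each lay from its group mean over 8308 genes. These distances correlated at −0.326 to 0.552 over 28 pairs of groups (median 0.218), with 19 above 0.1. For NEE-sampled RNA the number counts technical repeats. The tests leave the number out and use it as an alternative. Unless the block is named, the SE, intervals and adjusted p given are therefore those of a fit without pairing. Others were RLE scaling or library totals, no filter or 5 CPM in 2 libraries, DESeq2 1.42.0, only the libraries compared, HSPA1A and HSPA1B summed, NEE-sampled libraries summed, and each library left out in turn. Tables and figures used Python 3.11.15, pandas 2.3.3, numpy 2.4.6, scipy 1.17.1 and matplotlib 3.10.9.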

Additional observations from a re-analysis of the deposited data

How the results depend on the processing

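For spheroids against monolayers before NEE, 1 of the 10 genes was called, 2 with the replicate block, 2 with DESeq2, 0 with only the libraries compared and 0 to 2 with each library left out in turn. Over the 4 times 7 genes were called with the replicate block, where HSPA1B also passed, and 7 with DESeq2. The block changed no other count of these genes. Of 145 estimates for the 10 genes that were not called, 80 took both signs when single libraries were left out, and of the 15 called, 0. Among those given for their small p they were 5: HSPB1 in spheroids right after NEE ran from −0.016 to 0.49, HSPA1A in spheroids at 2 h from −0.46 to 0.11, HSPH1 in spheroids at 2 h from −0.36 to 1.84, and in the mean of both cultures right after NEE HSPD1 from −0.011 to 0.17 and HSP90AA1 from −0.094 to 0.21. The cause was not tested. Of the other values for counts of called genes under an alternative, 224 stayed within 1.5 times the main count, and of the values for single genes 579 kept their direction and side of the threshold and 19 lost their call. A group left with 1 library was assumed to vary like the others. With 2 libraries a group, a change that lies inside an interval spanning 0 was not excluded for that gene.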
